A study of Mus musculus with 4 samples.

Results

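The genes described here are the 10 that encode enzymes and a chaperone of collagen hydroxylation and crosslinking: P4ha1, P4ha2, P4ha3, Plod1, Plod2, Plod3, Serpinh1, Lox, Loxl1 and Bmp1. They were taken by gene name from a table of 55573 genes. Ribo-seq (ribosome profiling, the sequencing of mRNA stretches that ribosomes shield from nuclease) was performed on proliferating primary mouse myoblasts on day 2 of culture with FGF, a growth factor that keeps myoblasts dividing. There were 2 WT libraries and 2 libraries labelled KO. In the KO animals a floxed gene of the translation factor eIF5A was to be deleted by Pax7-CreERT2, a Cre that tamoxifen activates in Pax7-expressing muscle stem cells, and the cultures were prepared from 3-week-old KO mice and WT littermates. The study describes its WT animals in more than one way, as carrying the Cre alone or the floxed allele alone. All libraries were treated with cycloheximide, which stalls elongating ribosomes. Deletion in this model is limited to cells that expressed Pax7, and other cells carried into a primary culture keep the gene. Whether the libraries of a group came from separate animals is not stated, so p-values measure only the spread between these samples, which may be technical.

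Collagen chains are modified as they enter the endoplasmic reticulum. Prolyl 4-hydroxylases, made of an alpha subunit (P4ha1, P4ha2 or P4ha3) and the beta subunit P4hb, hydroxylate prolines so that the triple helix is stable at body temperature, lysyl hydroxylases (Plod1, Plod2, Plod3) modify lysines, and the chaperone Hsp47 (Serpinh1) binds the folded procollagen. Outside the cell Bmp1 removes the C-terminal propeptide, and the lysyl oxidases Lox and Loxl1 oxidize lysines of collagen and elastin, the step that starts crosslinking. In muscle this machinery is best known from fibroblasts, and muscle stem cells also lay down matrix in their niche.

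eIF5A is known for helping ribosomes through runs of prolines, so the coding sequences of the members were searched for them. Only Plod3 held a run of 3 or more prolines, at residues 297 to 299, chr5:136990151-136990159 on the plus strand (GRCm38, GENCODE vM21). The codons are shown because they are the only such site among the 10 genes, with the proline codons in capitals and 3 codons on each side.
Plod3: ggggggcagCCTCCCCCCcgggtgctt
Of 14493 protein-coding genes with reads, 24.5% held such a run. The proline content of the members' proteins ran from 3.36% in Serpinh1 to 10.2% in Loxl1.

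P4ha1 and P4ha2 are textbook targets of the hypoxia-inducible factors, and their promoters are shown because these genes had some of the largest values in the comparison below. RefSeq promoter windows (GRCm38.p6, 250 bases before to 50 after the start) were matched for 6 of the 10 members, P4ha1, P4ha2, P4ha3, Plod1, Plod3 and Serpinh1. They were searched on both strands for ACGTG and GCGTG, the core letters those factors bind, with a CACGTG counted once for each strand. Of the 6 windows 5 held a match, with 3 in P4ha1, 4 in P4ha2, 2 in Plod1, 4 in Plod3 and 1 in Serpinh1. Over all 32851 promoters of the table, 43.8% held at least 1 match and 8.9% held at least 3. A match is only a description of the letters. In the stretches below, written 5′ to 3′ on the plus strand, capitals mark matches on either strand. That of P4ha1 is chr10:59323123-59323184, from 173 to 112 bases before its RefSeq start, and that of P4ha2 is chr11:54100807-54100869, from 117 to 55 bases before the RefSeq start at 54100924, which lies inside the longer gene span of the deposited table.
P4ha1: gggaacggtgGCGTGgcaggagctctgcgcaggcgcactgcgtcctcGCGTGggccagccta
P4ha2: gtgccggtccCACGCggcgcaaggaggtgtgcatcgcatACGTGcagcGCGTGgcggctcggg

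The libraries held from 642429 to 704006 gene-assigned reads, of which protein-coding genes took 33.9% to 41.5% in WT against 59.2% to 65.4% in the libraries labelled KO. Levels are in RPKM, the reads of a gene per kilobase of its length after the authors had scaled the libraries to a common size, and a level resting on 3 reads or fewer was not told from 0. The Eif5a gene itself stood at 34.9 and 65.2 RPKM in WT and at 60.3 and 59.4 RPKM in the libraries labelled KO, a log2 difference of 0.32 ± 0.48 (SE, limma adjusted p = 0.839, n = 2 per group). The deletion was therefore not visible in the reads of the whole gene, although such a value cannot show the loss of single exons, and every direction given here is between libraries as labelled. Most myoblast markers were present in all 4 libraries, although Myf5 had 2 and 0 reads in the libraries labelled KO. Among them was Myod1, a master regulator of the muscle lineage, at 139.9 and 117.5 RPKM in WT against 48.6 and 79.8 RPKM in the libraries labelled KO. Markers of other cells were also present, including the fibroblast proteoglycan Dcn at 125.8 to 459.9 RPKM, the endothelial cadherin Cdh5 at 63.6 to 87.1 RPKM and, of the immune list, the monocyte gene Cd14 at 17.2 to 31.8 RPKM and the macrophage gene Cd68 at 14.8 to 23.6 RPKM. The pan-leukocyte gene Ptprc stood at 0 to 0.453 RPKM.

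None of the 10 genes passed the test between the groups. The 3 largest differences were those of Plod2, P4ha1 and P4ha2, each higher in the mean of the libraries labelled KO by 2.28 to 3.35-fold, and each carried mostly by the library labelled KO replicate 1. The collagen chaperone Serpinh1, the most abundant member, and the lysyl oxidases Lox and Loxl1 had mean levels in the libraries labelled KO of 0.730 to 1.22 times those in WT. In limma on log2(RPKM + 1), 0 of the 10 had an adjusted p under 0.05, against 0.106% of the 11363 genes tested, and 0 had an unadjusted p under 0.05 in either direction, against 2.86% of tested genes higher and 4.46% lower. All 10 passed the filter on low values, a mean of at least 1 RPKM over the 4 libraries. Both libraries labelled KO lay above both WT libraries for 2 members, P4ha1 and Plod2, against 20.1% of tested genes, and below them for 1, Loxl1, against 20.3%. Neither share exceeded that of the tested genes. The median log2 difference of the members was 0.24, beside 0.00 over all tested genes, and 8 of 10 were positive, beside 50.0% of tested genes. With 2 libraries against 2, an exact permutation test cannot give a two-sided p below 0.333.

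**Figure D1:**
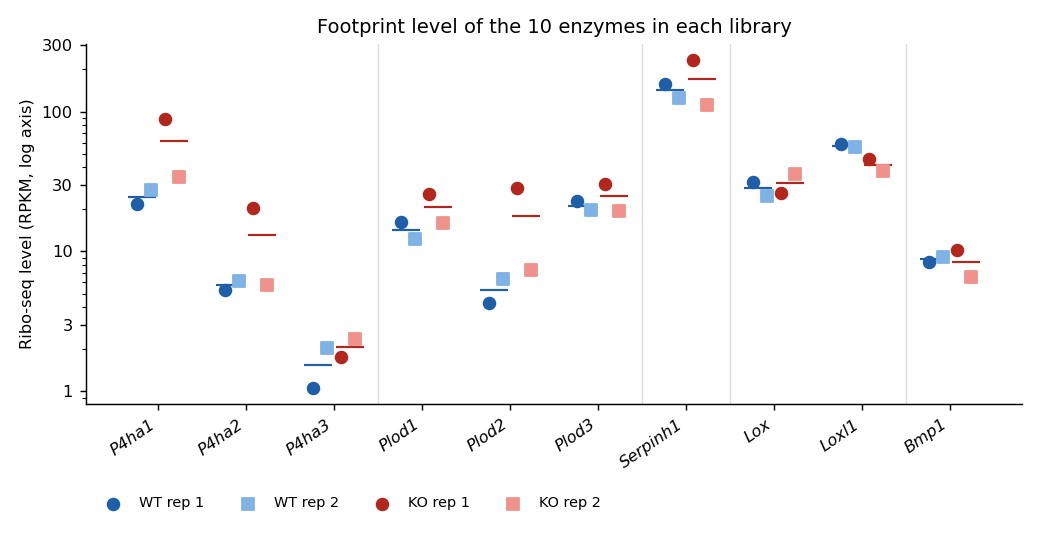
RPKM of the 10 genes on a log axis in each library, WT and labelled KO, with a bar at each group mean. Serpinh1 is highest in all 4 libraries, from 112.0 to 232.4 RPKM, and the library labelled KO replicate 1 stands above the other 3 for P4ha1, P4ha2 and Plod2.

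The levels covered a wide range. In WT, Serpinh1 averaged 141.7 ± 23.4 RPKM (SD, n = 2), followed by Loxl1 at 57.1 ± 2.47, Lox at 28.2 ± 4.75, P4ha1 at 24.6 ± 3.94, Plod3 at 21.2 ± 2.14, Plod1 at 14.2 ± 2.79, Bmp1 at 8.75 ± 0.479, P4ha2 at 5.72 ± 0.570 and Plod2 at 5.30 ± 1.41 RPKM. P4ha3 came last at 1.06 and 2.03 RPKM, which were 2 and 3 reads. The replicate values of Lox overlapped those of P4ha1, those of P4ha1 overlapped Plod3, and those of P4ha2 overlapped Plod2, so the order within these neighbours is not set. Among protein-coding genes with reads, Serpinh1 lay at percentile 99.6 in WT replicate 1, Loxl1 at 98.4 and Lox at 96.2, while P4ha2 lay at 68.9 and Plod2 at 63.5. In the library labelled KO replicate 1, P4ha1 reached percentile 98.6, Plod2 94.1 and P4ha2 91.8. The replicates numbered 2 were nearer to each other. P4ha1 lay at percentile 94.5 in WT and 95.3 in the library labelled KO, Plod2 at 73.2 and 76.3, and P4ha2 at 72.6 and 71.2.

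Gene length in the table covers untranslated parts, where ribosomes seldom sit, so the order was also taken per kilobase of coding sequence, a choice made after the data were seen. On that scale, RPKM computed with coding length and the same library scaling, WT means were 276.6 for Serpinh1, 109.4 for Lox, 103.4 for Loxl1 and 63.1 for P4ha1. The mean of Lox was then above that of Loxl1, but their WT values overlapped, at 122.4 and 96.4 against 106.6 and 100.2, so the order of this pair is not set. Plod1 and Plod3 stood at 44.0 and 43.2, and Bmp1, P4ha2, Plod2 and P4ha3 at 26.1, 22.2, 12.6 and 2.98. The 10 genes together took 0.262% of protein-coding reads in WT replicate 1 (95% Wilson interval 0.243% to 0.282%) and 0.227% in replicate 2 (0.208% to 0.248%). In the libraries labelled KO they took 0.374% in replicate 1 (0.356% to 0.392%) and 0.219% in replicate 2 (0.205% to 0.234%). The share was thus highest in the library labelled KO replicate 1, and the other library labelled KO was the lowest of the 4. Serpinh1 alone supplied 26.2% to 33.1% of the members' reads in each library.

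The prolyl 4-hydroxylase alpha subunits set the catalytic site that hydroxylates proline. P4ha1 (ENSMUSG00000019916, chr10:59323296-59373304, plus strand), the main isoform of most cells, was at 21.8 and 27.3 RPKM in WT (54 and 53 reads) and at 88.4 and 34.3 RPKM in the libraries labelled KO (330 and 114 reads). Both libraries labelled KO were above both WT libraries, by 3.60 times the WT mean in replicate 1 and 1.40 times in replicate 2. The log2 difference was 1.15 ± 0.56 (SE, 95% interval -0.24 to 2.53, limma adjusted p = 0.676). P4ha2 (ENSMUSG00000018906, chr11:54100095-54131665, plus strand), an isoform prominent in cartilage and bone, was at 5.32 and 6.12 RPKM in WT and at 20.3 and 5.75 RPKM in the libraries labelled KO. Replicate 1 of these stood at 3.55 times the WT mean and replicate 2 at 1.01 times, inside the WT range. The log2 difference of P4ha2 was 0.84 ± 0.60 (SE, 95% interval -0.64 to 2.32, limma adjusted p = 0.706).

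P4ha3 (ENSMUSG00000051048, chr7:100285520-100319699, plus strand), the least abundant isoform, was covered by 2 and 3 reads in WT and by 5 and 6 reads in the libraries labelled KO. Pooled over each group that was a ratio of 1.38 with a 95% exact counting interval of 0.441 to 5.06, so a difference was not detectable at this depth. Within each library, P4ha1 took most of the family's summed RPKM, 77.4% and 77.0% in WT against 80.0% and 80.9% in the libraries labelled KO. P4ha2 took 18.9% and 17.3% in WT against 18.4% and 13.6% in the libraries labelled KO. The makeup of the family thus moved by a few percentage points while its summed level ran from 28.1 and 35.5 RPKM in WT to 110.5 and 42.4 RPKM in the libraries labelled KO. The higher share of P4ha1 in both libraries labelled KO, by 3.25 percentage points, had the smallest p the exact permutation test allows, 0.333. Relative to P4hb, the beta subunit that all 3 isoforms share, the summed alpha subunits stood at 0.257 and 0.339 in WT and at 0.493 and 0.327 in the libraries labelled KO, and the groups overlapped.

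Among the lysyl hydroxylases, Plod2 makes the telopeptide hydroxylysines that direct collagen toward stable pyridinoline crosslinks. Plod2 (ENSMUSG00000032374, chr9:92542223-92608428, plus strand) was at 4.31 and 6.30 RPKM in WT (14 and 16 reads) and at 28.2 and 7.35 RPKM in the libraries labelled KO (138 and 32 reads). All values of the libraries labelled KO were above those of WT, at 5.32 and 1.39 times the WT mean. The log2 difference, 1.33 ± 0.65 (SE, 95% interval -0.28 to 2.93, limma adjusted p = 0.676), was the largest among the members. Plod1 (ENSMUSG00000019055, chr4:147909753-147936767, minus strand), which acts on lysines of the helix, was at 16.2 and 12.2 RPKM in WT and at 25.9 and 15.9 RPKM in the libraries labelled KO, and the groups overlapped (log2 difference 0.50 ± 0.43 SE, limma adjusted p = 0.729). Plod3 (ENSMUSG00000004846, chr5:136987019-136996648, plus strand), which also adds sugars to hydroxylysine and whose proline codons are printed above, was at 22.8 and 19.7 RPKM in WT and at 30.5 and 19.5 RPKM in the libraries labelled KO (log2 difference 0.19 ± 0.43 SE, 95% interval -0.85 to 1.24, limma adjusted p = 0.893).

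Shares within the lysyl hydroxylase family compare its members inside each library, where the scaling between libraries drops out. The trend with coding GC content given below does not drop out, here or in the shares of the other families. Coding GC content was 44.2% for Plod2 and 57.2% for Plod3. Plod2 supplied 9.96% and 16.5% of the family's summed RPKM in WT against 33.3% and 17.2% in the libraries labelled KO. Plod3 supplied 52.6% and 51.6% in WT against 36.0% and 45.5% in the libraries labelled KO. Groups did not overlap for either gene, although WT replicate 2 and the library labelled KO replicate 2 were separated by less than 1 percentage point for Plod2. The mean shares differed by 12.1 percentage points for Plod2 and by -11.3 for Plod3 (KO minus WT, exact permutation p = 0.333 for each, the smallest possible). The sizes rested on single libraries. Leaving out the library labelled KO replicate 1 gave 3.99 and -6.56 percentage points, and leaving out replicate 2 gave 20.1 and -16.1. Plod1 overlapped, at 37.4% and 32.0% in WT against 30.6% and 37.3% in the libraries labelled KO.

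**Figure D2:**
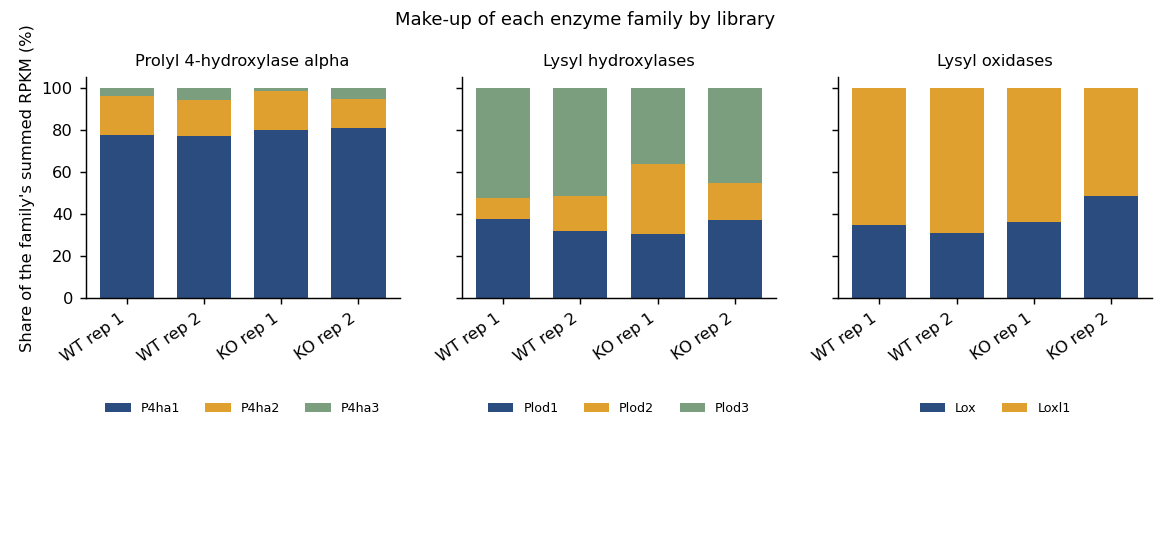
Share of each family's summed RPKM (percent) taken by its members in each library, with 1 stacked bar per library. P4ha1 stays between 77.0% and 80.9%, whereas Plod2 runs from 9.96% in WT replicate 1 to 33.3% in the library labelled KO replicate 1, and Lox from 31.0% to 48.6%.

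Serpinh1 (ENSMUSG00000070436, chr7:99345376-99353239, minus strand), the collagen chaperone Hsp47, was at 158.2 and 125.1 RPKM in WT and at 232.4 and 112.0 RPKM in the libraries labelled KO. The libraries labelled KO held both the highest and the lowest value of the 4. The log2 difference was 0.20 ± 0.56 (SE, 95% interval -1.17 to 1.57, limma adjusted p = 0.919). Without the library labelled KO replicate 1 its sign turned, to -0.33. Relative to the type I collagen chains Col1a1 and Col1a2, its main clients, Serpinh1 stood at 2.04 and 2.16 in WT and at 2.07 and 1.65 in the libraries labelled KO, a ratio of RPKM within each library that overlapped between the groups.

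The lysyl oxidases act outside the cell on assembled collagen and elastin. Lox (ENSMUSG00000024529, chr18:52516067-52529867, minus strand), the founding lysyl oxidase, was at 31.6 and 24.9 RPKM in WT and at 26.1 and 35.5 RPKM in the libraries labelled KO, with a log2 difference of 0.11 ± 0.42 (SE, 95% interval -0.92 to 1.15, limma adjusted p = 0.941). Loxl1 (ENSMUSG00000032334, chr9:58287738-58313186, minus strand), which is known for its role in elastic fibres, was at 58.9 and 55.4 RPKM in WT and at 45.8 and 37.6 RPKM in the libraries labelled KO. Both of the latter lay under both WT values, at 0.730 of the WT mean, and the log2 difference was -0.45 ± 0.41 (SE, 95% interval -1.47 to 0.57, limma adjusted p = 0.732). Its sign turned under scaling to total reads (0.15) and with the trend on GC content and length removed (0.06). Lox supplied 34.9% and 31.0% of the summed RPKM of the pair in WT against 36.3% and 48.6% in the libraries labelled KO, a mean difference of 9.47 percentage points without overlap (exact permutation p = 0.333, the smallest possible). Leaving out the library labelled KO replicate 1 gave 15.6 percentage points, and leaving out replicate 2 gave 3.31.

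Bmp1 (ENSMUSG00000022098, chr14:70474558-70520234, minus strand), the procollagen C-proteinase, was at 8.42 and 9.09 RPKM in WT and at 10.2 and 6.56 RPKM in the libraries labelled KO, with a log2 difference of -0.08 ± 0.39 (SE, 95% interval -1.05 to 0.89, limma adjusted p = 0.957). The interval leaves a change of up to about 1 log2 unit in either direction undetected. Set against its enhancer Pcolce within each library, Bmp1 stood at 0.413 and 0.528 in WT and at 0.264 and 0.289 in the libraries labelled KO. The lysyl oxidases Lox and Loxl1 together, set against Col1a1 plus Col1a2, stood at 1.17 and 1.39 in WT and at 0.642 and 1.07 in the libraries labelled KO. The summed lysyl hydroxylases, set against the same collagen chains, stood at 0.558 and 0.662 in WT and at 0.755 and 0.629 in the libraries labelled KO, and the groups overlapped. For the ratios of Bmp1 and of the lysyl oxidases the libraries labelled KO lay below WT without overlap (exact permutation p = 0.333, the smallest possible). All 5 ratios within libraries given here were chosen after the values were seen.

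**Figure D3:**
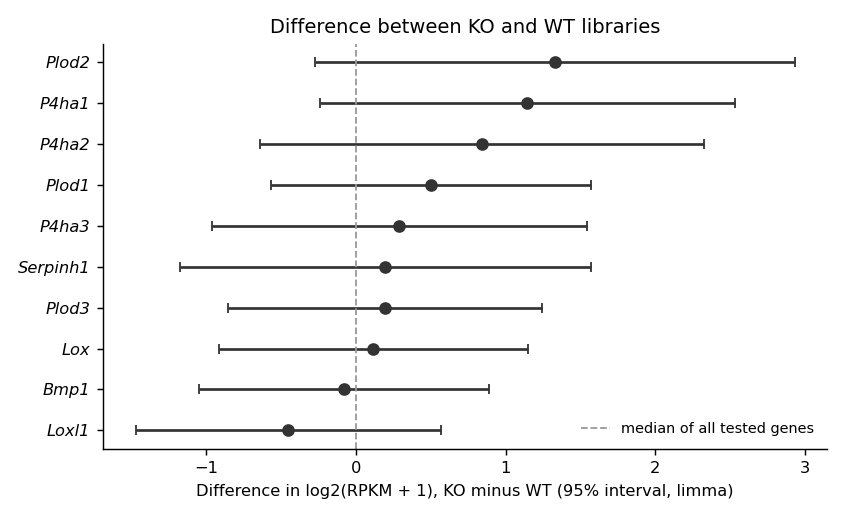
Log2 difference of log2(RPKM + 1), KO minus WT, for each gene with its 95% interval from limma, beside the median over all tested genes. Every interval spans 0, from Plod2 at 1.33 (-0.28 to 2.93) to Loxl1 at -0.45 (-1.47 to 0.57).

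The libraries labelled KO differed from each other by more than counting error for 8 of the 10 members, against 18.9% of all tested genes, many of which have fewer reads. The ratio of replicate 1 to replicate 2 was 3.84 for Plod2 (95% exact counting interval 2.60 to 5.83), 3.53 for P4ha2 (2.33 to 5.51), 2.58 for P4ha1 (2.08 to 3.22) and 2.08 for Serpinh1 (1.77 to 2.44). It was smaller for Plod1 at 1.63 (1.25 to 2.14), Plod3 at 1.57 (1.16 to 2.13) and Bmp1 at 1.55 (1.07 to 2.27). Thus all hydroxylases but P4ha3, whose interval spanned 1 (0.179 to 2.92), the chaperone and the propeptidase stood higher in the library labelled KO replicate 1. Lox went the other way, at 0.734 (0.567 to 0.949), and the interval of Loxl1 spanned 1 (0.936 to 1.60). Between the WT replicates 1 member, Serpinh1, differed beyond counting error, with a ratio of 1.26 (1.02 to 1.57), against 22.2% of tested genes. Over all protein-coding genes whose pair of libraries held 20 reads or more, both replicate pairs spread beyond counting error, with a chi-square per degree of freedom of 6.94 for WT and 5.28 for the libraries labelled KO. Across the groups, the value was 3.61 between the replicates numbered 2 and 10.2 between those numbered 1. This measure grows with the reads of a pair. Protein-coding reads ran from 217651 in WT replicate 2 to 460099 in the library labelled KO replicate 1. The values therefore do not rank the pairs by likeness. The reads carry no molecular identifiers, so these intervals cover counting error only.

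**Figure D4:**
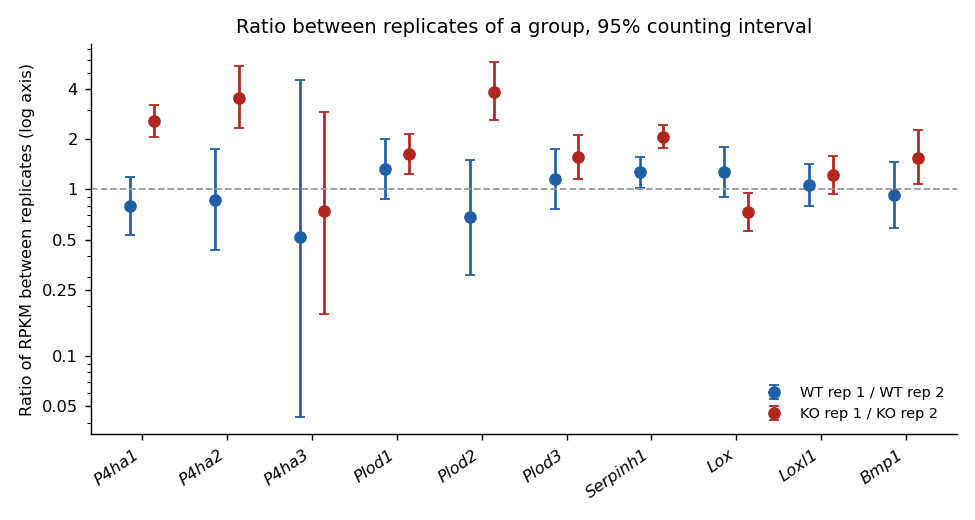
Ratio of replicate 1 to replicate 2 on a log axis within WT and within the libraries labelled KO, with 95% exact counting intervals. The ratio of the libraries labelled KO is above 2 for Plod2, P4ha2, P4ha1 and Serpinh1 and below 1 for Lox, while among the WT intervals only that of Serpinh1 (1.02 to 1.57) lies off 1.

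In a count made after the values were seen, the library labelled KO replicate 1 was the highest of the 4 for 7 of the 10 members, against 24.3% of tested genes. For 3 of them, P4ha1, P4ha2 and Plod2, it was at least 2-fold above each other library on the RPKM + 1 scale, against 2.22% of tested genes. Without that library the log2 difference was 0.47 for P4ha1, 0.01 for P4ha2 and 0.42 for Plod2. Without the other library labelled KO it was 1.82, 1.67 and 2.23, and these 3 members then had an unadjusted p under 0.05 in limma, against 5.17% of tested genes in that fit, although none had an adjusted p under 0.05.

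Most tested markers of fibroblasts were highest in the same library. Of 14 such markers 11 passed the filter. The library labelled KO replicate 1 was highest for 10 of the 11, against 24.3% of tested genes. Thy1 went the other way, at 14.4 and 17.0 RPKM in WT against 12.9 and 11.2 RPKM in the libraries labelled KO. The summed level of the list was 527.3 and 377.7 RPKM in WT against 963.1 and 458.9 RPKM in the libraries labelled KO. Dcn stood at 239.5 and 125.8 RPKM in WT and at 459.9 and 171.1 RPKM in the libraries labelled KO. Pdgfra, Fbn1 and Mfap5 were, like P4ha1, P4ha2 and Plod2, at least 2-fold above each other library there. Twist2 was at 0 in 3 of the 4 libraries. The summed level of 10 myoblast markers was 349.6 and 308.4 RPKM in WT against 210.9 and 235.6 RPKM in the libraries labelled KO. Without overlap, 5 of them were lower (Myod1, Myf5, Pax7, Des and Chrna1), against 20.3% of tested genes. In the same way 1, Vcam1, was higher, against 20.1%. Of the 5, Myf5 had 2 and 0 reads in the libraries labelled KO, not told from 0. The 5 endothelial markers summed to 105.5 and 99.8 RPKM in WT against 138.5 and 112.0 RPKM. Markers of fusing muscle cells summed to 227.4 and 54.0 RPKM in WT against 34.1 and 28.9 RPKM, mural markers to 155.9 and 121.8 against 99.3 and 107.9 RPKM, and immune markers to 45.7 and 60.6 against 56.9 and 49.5 RPKM. The fusion genes Mymk and Mymx had 0 reads in 3 libraries and 2 and 1 reads in the library labelled KO replicate 1. In bulk samples such as these, fewer cells of a type and less RNA per cell cannot be told apart, and the part of these markers in the members' values was not tested.

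Base composition moved with the comparison as well. Over 9865 protein-coding genes the log2 difference was lower at higher coding GC content (Spearman's rho -0.36, a description across genes of the same 4 libraries, which are not independent replicates). These genes were split by GC content into 10 bins of near-equal size, and the median log2 difference was 0.37 in the lowest bin and -0.48 in the highest. Plod2 (44.2% GC) was in bin 1, P4ha1 (47.1%) in bin 2 and Loxl1 (64.7%) in bin 10. Against the median of its own bin, Plod2 was 0.95 higher, P4ha1 0.86, P4ha2 0.81 and Plod1 0.56, while Loxl1 differed by 0.03, and each of the 10 lay above it. With the trend on GC content and coding length removed from each library, the log2 differences were 1.08 for Plod2, 0.91 for P4ha1, 0.89 for P4ha2, 0.70 for Plod1, 0.52 for P4ha3, 0.51 for Serpinh1, 0.43 for Plod3, 0.40 for Lox, 0.19 for Bmp1 and 0.06 for Loxl1. All 10 were then positive, beside a median of 0.04 over all genes so treated, and the values of Serpinh1, Lox, Plod3 and P4ha3 were over 1.5 times those without the correction. In that fit 0 of the 10 had an unadjusted p under 0.05 in limma, against 7.32% of 9865 genes.

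**Figure D5:**
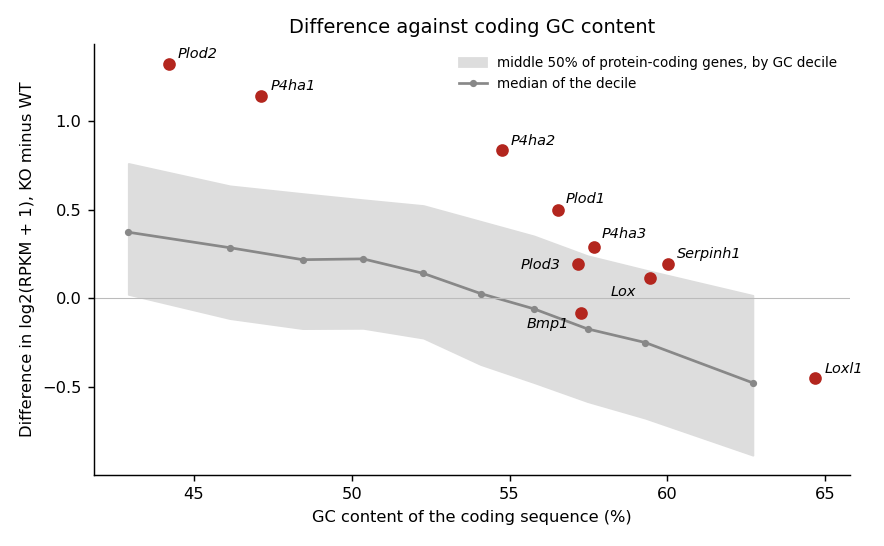
Log2 difference, KO minus WT, against coding GC content (percent) for the 10 genes, with the median and quartiles over each of 10 bins of 9865 protein-coding genes. Plod2, P4ha1 and P4ha2 lie above the median of their bin by 0.81 to 0.95, and Loxl1 by 0.03.

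The deposited scaling was not to total reads. With scaling to total gene-assigned reads, which raised the median gene by 0.47, the groups did not overlap for 8 members rather than 3, against 49.3% of tested genes. Under it 2 members (P4ha1 and Plod2) had an unadjusted p under 0.05 in limma, against 16.3% of tested genes, and Loxl1 and Bmp1 turned to 0.15 and 0.47. The smallest adjusted p of a member under that scaling was 0.289.

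The rest of the pathway was described with a list of 31 other genes, of which 26 passed the filter. Of these 0 had an adjusted p under 0.05 in limma and 2 had an unadjusted p under 0.05, both higher, namely Fkbp7, a prolyl isomerase of the endoplasmic reticulum, and Loxl3, another lysyl oxidase. Each WT library held only 2 reads of Fkbp7, a level not told from 0, beside 7 in KO replicate 1 and 8 in KO replicate 2. The share at an unadjusted p under 0.05 and higher was 2.86% over all tested genes. The groups did not overlap for 10 genes higher and 3 lower, where 20.1% and 20.3% of all tested genes were so placed, and the median log2 difference was 0.24, beside 0.24 for the members. Loxl3 was at 11.2 and 9.68 RPKM in WT and at 22.5 and 20.2 RPKM in the libraries labelled KO, whereas Loxl2 was at 7.67 and 4.32 against 4.08 and 2.52 RPKM, and Loxl4 at 0.787 and 6.55 against 3.14 and 2.35 RPKM. Without overlap, Loxl3 was higher and Loxl2 lower, whereas Loxl4 overlapped and had 2 reads in WT replicate 1, not told from 0. Of these 3 lysyl oxidases 0 had an adjusted p under 0.05 in limma. Among the 26 genes past the filter none was at least 2-fold above each other library in the library labelled KO replicate 1, against 2.22% of tested genes. That library was the highest for 10 of the 26, against 24.3% of tested genes.

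Partners in the endoplasmic reticulum were represented by 12 genes, of which 5 were higher without overlap, against 20.1% of tested genes, and 1, Tmem38b, was lower, against 20.3%, with a median log2 difference of 0.41. P4hb, which also serves as a disulfide isomerase, was at 109.6 and 104.6 RPKM in WT and at 224.3 and 129.8 RPKM in the libraries labelled KO (log2 difference 0.67, limma adjusted p = 0.712). Crtap, a subunit of the prolyl 3-hydroxylase complex, was at 23.4 and 40.7 against 29.9 and 33.5 RPKM, and Fkbp9, a prolyl isomerase, at 22.5 and 26.3 against 27.6 and 29.5 RPKM. The collagen galactosyltransferase Colgalt1 was at 16.9 and 15.7 RPKM in WT and at 19.4 and 19.7 RPKM in the libraries labelled KO, and Colgalt2, which did not pass the filter, had 1 read in each WT library and 4 reads in each library labelled KO.

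Of 5 genes for procollagen export, Sec24d was at 15.2 and 22.1 RPKM in WT and at 21.1 and 18.6 RPKM in the libraries labelled KO. Sec23a, its partner in the COPII coat, was at 7.54 and 14.9 against 20.7 and 17.4 RPKM, and the cargo receptor Mia3 at 15.2 and 10.9 against 19.0 and 8.60 RPKM. Only Sec23a was without overlap among the 5, higher in the libraries labelled KO, against 20.1% of tested genes. For propeptide cleavage, 5 of 9 genes passed the filter. Pcolce was at 20.4 and 17.2 RPKM in WT and at 38.6 and 22.7 RPKM in the libraries labelled KO, its relative Pcolce2 at 0.717 and 6.42 against 9.54 and 10.2 RPKM, and the N-proteinase Adamts2 at 6.93 and 4.09 against 3.07 and 3.05 RPKM.

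The substrates of these enzymes, 9 collagen chains and elastin, had 9 members past the filter and a median log2 difference of 0.30. In limma 0 of the 9 had an adjusted p under 0.05, against 0.106% of tested genes. With an unadjusted p under 0.05 there were 0, against 2.86% of tested genes higher and 4.46% lower. Col1a1 was at 38.4 and 29.1 RPKM in WT and at 55.8 and 33.4 RPKM in the libraries labelled KO, and Col1a2 at 39.1 and 28.7 against 56.3 and 34.6 RPKM. The library labelled KO replicate 1 was highest for 6 of the 9 tested substrates, against 24.3% of tested genes, these chains of type I collagen among them. The 3 most abundant substrates were instead highest in WT replicate 1. Of these, the basement membrane chain Col4a1 was at 112.0 and 79.9 RPKM in WT and at 98.7 and 69.5 RPKM in the libraries labelled KO, its partner Col4a2 at 80.4 and 68.9 against 79.0 and 67.9 RPKM, and the fibrillar Col3a1 at 66.7 and 25.7 against 50.2 and 23.5 RPKM. The groups were apart for 2 of the 9, Col5a2 and Col6a1, both higher, against 20.1% of tested genes. Footprints alone do not separate the amount of an mRNA from its translation, and RNA-seq was not used here.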

How the data were processed

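Per the labels and methods of the study, lysates were digested with RNase I, ribosome complexes were recovered on a size-exclusion resin and gel-selected fragments were sequenced. The submitters' processing notes name TopHat, TopHat2, HTSeq and mm10. The authors deposited RPKM values of 55573 genes. Multiplied by gene length they gave whole reads (within 0.01) for 100.0% of values, with implied denominators of 471136 to 906990 reads against totals of 642429 to 704006. How reads matching several places were counted was not given in the sources used here.

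The main test was limma 3.58.1 in R 4.3.3 (lmFit, eBayes with a mean-variance trend) on log2(RPKM + 1), with a single term for group. It ran on the 11363 genes whose mean RPKM reached 1. Two-sided p-values had a Benjamini-Hochberg adjustment over all tested genes, and the threshold was 0.05. This scale understates changes of low genes. Exact permutation tests and counting intervals used scipy 1.17.1 in Python 3.11.15. Coding sequences came from GENCODE vM21 (GRCm38), which held 99.7% of the identifiers, and promoters from RefSeq. The fit was tested on simulated counts that had the same spread setting for all genes and no trend with base composition. That test does not cover the spread between replicates or the composition trend of these libraries.

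All 10 members were named whatever their values. In each pathway role the 3 genes of highest mean RPKM were named, and Fkbp7, Tmem38b, Col1a1, Col1a2, Col5a2, Col6a1 and the single markers were chosen after their values were seen. The members, gene lists and tests were chosen with earlier results of these data known. Alternatives changed the pseudocount, filter, gene class, variance model, unit, scaling, composition trend, replicate block and libraries.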

Additional observations from a re-analysis of the deposited data

How the results depend on the processing

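Of 169 values of single members under 17 alternatives, 158 kept the direction and side of the threshold and 11 reversed. No member had an adjusted p under 0.05 under any of the 17. Scaling to total reads reversed Loxl1 (0.15) and Bmp1 (0.47), and removing the trend on GC content and length also did (Loxl1 0.056, Bmp1 0.19), with or without the replicate block. Total reads raised every member, among them Serpinh1 from 0.20 to 0.81, Lox from 0.11 to 0.71 and Plod3 from 0.19 to 0.78. Quantile normalization gave 0.57 for Serpinh1. For P4ha3, at 0.29 as reported, a pseudocount of 5 gave 0.11 and one of 0.1 gave 0.45. When each library was left out in turn, the log2 difference ran from -0.12 to 0.51 for Plod3, from -0.33 to 0.72 for Serpinh1, from -0.10 to 0.33 for Lox and from -0.37 to 0.20 for Bmp1. With the sign kept, it ran from 0.17 to 0.84 for Plod1, where KO replicates 1 and 2 set the ends, and from 0.01 to 0.57 for P4ha3, where WT replicates 1 and 2 did. Shares of the family, in percentage points KO minus WT, ran from -4.51 to 0.318 for P4ha2, from -3.15 to 0.844 for P4ha3 and from -4.08 to 2.57 for Plod1. These fits have 1 library in a group, which is assumed to vary like the others. Members at an unadjusted p under 0.05 numbered 0 in the reported fit, 2 with voom on recovered reads, 2 with total reads, 1 with the GC trend removed and the replicate block, and 0 to 3 with a library left out, the 3 being without the library labelled KO replicate 2. The shares of all genes in those 4 fits were 11.1%, 16.3%, 8.57% and 5.17%. Members without overlap numbered 3 as reported, 8 with total reads, 6 with the GC trend removed and 5 to 8 with a library left out, where fewer libraries overlap less often, against 40.4%, 49.3%, 39.9% and 62.1% to 75.4% of all genes. The causes were not tested.

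The replicate block changed no member's call (P4ha1 1.15, unadjusted p = 0.092 in limma). The WT and KO deviations of equal replicate numbers correlated at 0.14 over 6829 genes, so the libraries were taken to share only a number. Over all genes, adjusted calls numbered 12 as reported, 21 with a robust prior, 79 with voom, 2 with the GC trend removed and the replicate block, and 12 with quantile normalization, and 0 under the other 13. Depth limits P4ha3, Plod2 and P4ha2 most, with 2 to 20 reads in the WT libraries.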
